A study of Mus musculus with 12 samples.

Results

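Interferon-stimulated genes are the genes that a cell switches on when interferon, the secreted alarm signal of viral infection, reaches its surface. A list of 48 such genes was followed in 12 libraries of RAW 264.7 cells, a macrophage line derived from a mouse tumour. A gene was kept when at least 10 reads were assigned to it in at least 3 of the 12 libraries, and all 48 listed genes passed, among 13906 genes that passed out of 35865 matched genes. For 48 h the cells had been incubated with extracellular vesicles (EVs) of the mouse endothelial line MS-1, at a concentration of 3 µg of EV protein per ml. Before that, the EVs had been electroporated with a double-stranded mimic of a microRNA. There were 4 groups of 3 libraries: ctrl-EVs carried cel-miR-67, a nematode microRNA used as the control, and the other 3 groups, together called miR-EVs, carried miR-222-3p, miR-183-5p or miR-142-5p and are named after them. No group was left without EVs or was given interferon, so the levels below are those of EV-treated cells of 1 line. Every title ends in a number from 1 to 3 that all 4 groups share. What that number stands for is not stated, and the labels do not say that the libraries came from separate cultures, so the p-values measure the spread between these libraries, which may be technical.

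Type I interferons bind the receptor IFNAR and, through the kinases JAK1 and TYK2, activate a transcription factor complex that holds STAT2 and IRF9 and binds a promoter element called the interferon-stimulated response element (ISRE). Interferon gamma acts on a different element, the gamma-activated sequence (GAS). The genes switched on this way sense foreign RNA and DNA, degrade or sequester viral RNA, tag proteins with ISG15, load peptides for display to T cells, and feed back on the pathway. Macrophages keep a low tonic level of many of them without infection.

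The mimicked microRNAs are shown because they are what differed between groups. Their mature mouse forms are given from RefSeq (build GRCm38.p6), with the seed, bases 2 to 8, in capitals. The sequence of cel-miR-67 is not printed here.
miR-142-5p (chr11:87756867-87756887, plus strand): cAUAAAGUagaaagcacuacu
miR-183-5p (chr6:30169711-30169732, minus strand): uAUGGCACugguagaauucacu
miR-222-3p (chrX:19146901-19146923, minus strand): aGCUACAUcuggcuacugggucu
The 3 seeds differ from each other. The 7-base complement of the seed was looked for in the 3′ untranslated region of the main coding transcript of 47 members, the other one (Mx2) having no coding transcript in the annotation. It was present in 4 members for miR-142-5p (8.51%, against 14.0% of the 12558 tested genes with such a region), 5 for miR-183-5p (10.6% against 8.91%) and 4 for miR-222-3p (8.51% against 9.41%). Dtx3l held a site for both miR-142-5p and miR-222-3p, and Stat2 and Trim25 held a site for miR-183-5p. The levels of these genes are described below. The sites of Dtx3l and Stat2 are printed as examples, with the complement of the seed in capitals (GRCm38, in the direction of the transcript).
Dtx3l, miR-142-5p site (chr16:35928647-35928669): aaaagaaaACTTTATagttttat
Dtx3l, miR-222-3p site (chr16:35926902-35926924): ctctccctATGTAGCcaaggcta
Stat2, miR-183-5p site (chr10:128292515-128292537): ggacagcaGTGCCATgcccagcc
A match is a description of the letters and not a measured site.

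Each library held between 16294611 and 22974853 estimated counts. The libraries numbered 2 stood apart from the others. They had the fewest counts within each group, and 4.85% to 5.38% of their counts were mitochondrial (3.45% to 4.59% in the others). Transcripts annotated as retained introns took 5.76% to 6.63% of their counts, against 3.79% to 4.28%. Of 12 macrophage markers 10 were measured, with Ptprc, Cd68, Lyz2 and Spi1 well expressed. The other 2 were below the count filter, at no more than 8.90 normalised counts. The summed level of the list was 864 to 905 TPM in the libraries numbered 2 and 1084 to 1217 TPM in the others. TPM is a level scaled by transcript length and by the total of the library. Of 13 endothelial markers 7 were below the count filter, with Cldn5 at 0 in every library, and the sum of the list, mostly Egfl7, was 15.6 to 18.3 TPM in number 2 and 25.9 to 34.5 TPM in the others. The part of these differences in the results below was not tested.

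The interferon genes themselves were almost silent. All 21 interferon ligand genes on a list of alpha, beta, gamma, lambda and minor type I interferons fell below the filter, and the highest value of any of them was 5.02 normalised counts. Ifnb1, the gene for interferon beta, averaged 1.94 normalised counts in number 1, 2.43 in number 2 and 0.931 in number 3. The interferon-stimulated genes were present at very different levels. Compared per length, Bst2 (tetherin, which holds budding virus at the cell surface) was the highest at 172 ± 14.0 TPM (SD, n = 12), followed by Lgals3bp, a secreted glycoprotein, at 79.9 ± 35.4 TPM and Dhx58 (LGP2, a regulator of RNA sensing) at 73.9 ± 35.2 TPM. Bst2 stood clear of all others, while the ranges of the next ones overlapped. At the low end were Gbp2, a guanylate-binding protein, at 0.290 ± 0.221 TPM, Ifit3 at 1.06 ± 0.414 TPM, the nucleic acid sensor Zbp1 at 1.25 ± 0.591 TPM and Gbp3 at 1.36 ± 0.681 TPM. In bulk RNA, fewer cells expressing a gene and less RNA per cell cannot be told apart.

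To ask whether the loaded microRNA went with the interferon-stimulated genes, every loaded group was set against ctrl-EVs. No member passed the test (DESeq2 Wald test, Benjamini-Hochberg adjusted p under 0.05 over all 13906 genes) with miR-142-5p-EVs (0.00719% of all genes called), and none did in the groups loaded with miR-183-5p (0%) or miR-222-3p (0%) or over the mean of all miR-EVs (0%). No member had an unadjusted p under 0.05 in any of the 4 comparisons, and edgeR also called 0 members, again with 0 at an unadjusted p under 0.05. The median log2 fold change of the members was 0.16 for miR-222-3p (0.01 over all genes), 0.07 for miR-183-5p (0.01) and 0.05 for miR-142-5p (0.01). With miR-222-3p-EVs 42 of 48 members lay above 0 (7367 of 13906 genes in all). Members can change together within a library, so this count does not hold 48 separate pieces of evidence. By library, 13 of 48 members were above the same-numbered ctrl-EVs in 3 of 3 numbers (12.6% of all genes). In 1 member all 3 were below (12.6%).

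The spread between title numbers was wide in these fits, and the number was taken to pair the libraries. The same comparisons were therefore made with the number as a block. Then 1 member, Sp100, rose with miR-183-5p-EVs (0.41% of all genes called, 0.316% as higher and 0.0935% as lower) and 2 members, Dhx58 and Sp100, rose over all miR-EVs (0.626% called, 0.475% as higher and 0.151% as lower). No member was called with miR-142-5p-EVs (0.0575%, with 0.0288% higher and 0.0288% lower) or with miR-222-3p-EVs (0.0647%, with 0.0431% higher and 0.0216% lower). DESeq2 gave no adjusted p to 5, 5 and 20 members in the comparisons of miR-183-5p-EVs, all miR-EVs and miR-222-3p-EVs, respectively. The median of the members over all miR-EVs was 0.07, and that of all genes was 0.00. With the block, edgeR called 0 members in each comparison, and 10 members had an unadjusted p under 0.05 over all miR-EVs (1564 of all genes). The calls of Dhx58 and Sp100 therefore depended on the block and on the tool.

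Sp100 encodes a scaffold protein of nuclear bodies that restrict DNA viruses and lies on chromosome 1 (85649988 to 85709998, plus strand). Its normalised counts were 668, 420 and 810 in ctrl-EVs 1, 2 and 3. They were 854, 496 and 950 with miR-142-5p, 1029, 511 and 1012 with miR-183-5p, and 947, 485 and 980 with miR-222-3p. Every miR-EV library exceeded the same-numbered ctrl-EVs, yet the groups overlapped because the libraries numbered 2 were low in all of them. With the block, its log2 fold change was 0.41 ± 0.11 (SE, adjusted p = 0.0433) with miR-183-5p-EVs and 0.34 ± 0.09 (adjusted p = 0.0307) over all miR-EVs in DESeq2. Without the block no call was made. Leaving out 1 library at a time, the call over all miR-EVs was kept in 3 of 12 fits (without ctrl-EVs 2, ctrl-EVs 3 or miR-183-5p-EVs 2), lost in 8 (adjusted p up to 0.151) and without an adjusted p in 1. The miR-183-5p-EV call was kept in 2 (without ctrl-EVs 2 or ctrl-EVs 3), lost in 7 and without an adjusted p in 3.

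Dhx58 lies on chromosome 11 (100694884 to 100704271, minus strand). Its normalised counts were 666, 2061 and 899 in ctrl-EVs, 932, 2557 and 947 with miR-142-5p, 940, 2839 and 988 with miR-183-5p, and 889, 2635 and 1002 with miR-222-3p. The 9 paired log2 ratios ran from 0.08 to 0.50, and the smallest 3 were those of number 3. With the block, the log2 fold change over all miR-EVs was 0.32 ± 0.08 (adjusted p = 0.0299), and in the 3 single comparisons it lay between 0.29 and 0.36 without a call. The call was kept without ctrl-EVs 3 or miR-142-5p-EVs 2 and lost when any 1 of the other 10 libraries was left out (adjusted p up to 0.172).

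A further 4 members, Dtx3l, Ifit2, Parp14 and Trim25, were also above the same-numbered ctrl-EV library in 9 of 9 pairs, which makes 6 of 48 members (3.67% of all genes met this rule). No member was below it in 9 of 9 (3.85% of all genes). The 9 ratios share 3 ctrl-EV libraries and are not independent. Parp14, an ADP-ribosyltransferase, went from 1141, 526 and 1165 normalised counts in ctrl-EVs to 1410, 634 and 1467, 1615, 534 and 1531, and 1705, 553 and 1555 in the 3 loaded groups, in the same order. Its log2 fold change with the block was 0.33 ± 0.10 over all miR-EVs (adjusted p = 0.0758). Dtx3l, the ubiquitin ligase partner of PARP9, had 0.27 ± 0.10 (adjusted p = 0.157), and its log2 values were 0.21 and 0.30 with miR-142-5p and miR-222-3p, whose seed complements it carries. Ifit2, which binds viral RNA, had 0.29 ± 0.13 (adjusted p = 0.290), and Trim25, the ligase that modifies RIG-I, had 0.20 ± 0.07 (adjusted p = 0.197). Trim25 carries a seed complement for miR-183-5p, as do Stat2, Oas3, Gbp7 and Cxcl10. Their log2 values with miR-183-5p-EVs and the block were 0.25, 0.32, 0.15, -0.04 and -0.10, in that order, without a call.

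**Figure D1:**
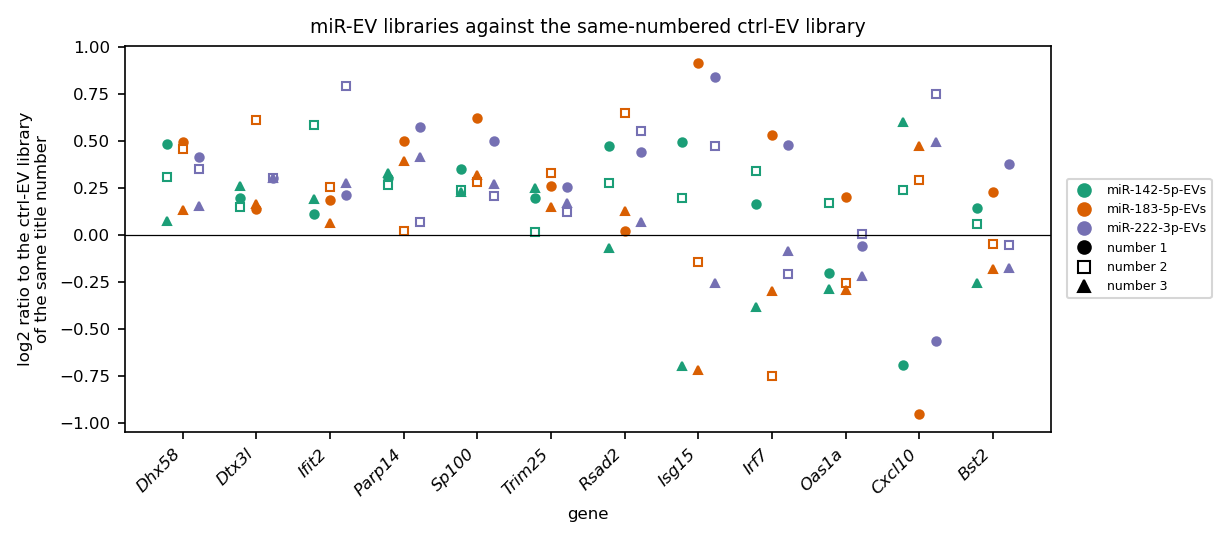
Log2 ratio (vertical axis) of the normalised count in each miR-EV library to that in its same-numbered ctrl-EVs, for 12 genes (horizontal axis), with colour for the treatment and symbol for the number. Dhx58, Dtx3l, Ifit2, Parp14, Sp100 and Trim25 have all 9 points above 0, while the points of Isg15, Irf7 and Cxcl10 lie on both sides.

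Without pairing, few members had 3 libraries clear of the ctrl-EVs. Rsad2 (viperin, an enzyme that makes a chain-terminating nucleotide) was above each of the ctrl-EVs in all 3 miR-183-5p-EV libraries (1 of 48 members, 1.74% of all genes), and Dtx3l, Ifit2 and Rsad2 were so with miR-222-3p-EVs (3 of 48, 1.49%). None was so with miR-142-5p-EVs (1.48%). Rsad2 was at 578, 581 and 555 normalised counts in ctrl-EVs, 802, 704 and 528 with miR-142-5p, 586, 914 and 607 with miR-183-5p, and 786, 854 and 582 with miR-222-3p. It carries a seed complement for miR-222-3p, and its log2 fold change with the block in that group was 0.35 ± 0.16 (adjusted p = 0.496). No member lay below all ctrl-EV libraries in a treated group, where 1.22% (miR-142-5p), 1.46% (miR-183-5p) and 1.2% (miR-222-3p) of all genes did so.

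Among the classical reporters of interferon, Isg15, Cxcl10, Irf7 and Usp18 showed no common shift with the microRNA. Others varied: Ifit2 was above the same-numbered ctrl-EVs in 9 of 9 pairs and Ifit1, Oas3 and Rsad2 in 8. Oas1a, Oas1g and Oasl1 were so in 3. Isg15, the ubiquitin-like modifier, was at 209, 81.6 and 331 normalised counts in ctrl-EVs, 296, 93.9 and 203 with miR-142-5p, 396, 73.9 and 200 with miR-183-5p, and 376, 114 and 277 with miR-222-3p. Compared with the same-numbered ctrl-EVs, it was higher in all 3 libraries numbered 1 and lower in all 3 numbered 3. Cxcl10, the chemokine that draws T cells, did the opposite, with 127, 86.7 and 70.7 in ctrl-EVs against 78.4, 103 and 108, 65.2, 107 and 98.6, and 85.8, 146 and 100.1 in the 3 treated groups. The values of ctrl-EVs 1 and 3 enter all of these ratios. Irf7, the factor that amplifies interferon production, was above its pair in 4 of 9 and Usp18, the protease that removes ISG15, in 3 of 9.

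A score for each library was the mean over the 48 members of log2(normalised count + 1) after subtracting the mean of each gene. It was 0.14, -0.61 and 0.28 in ctrl-EVs 1, 2 and 3, 0.29, -0.43 and 0.22 with miR-142-5p, 0.42, -0.81 and 0.21 with miR-183-5p, and 0.46, -0.51 and 0.33 with miR-222-3p. The 3 groups differed from ctrl-EVs by 0.09, 0.00 and 0.16, with a pooled SD of 0.524 within groups that includes the gap between title numbers. Over the 3 same-numbered pairs the SD of the difference was 0.131, 0.249 and 0.142. With miR-222-3p the score was above ctrl-EVs in 3 of 3 pairs, by 0.32, 0.10 and 0.05 in numbers 1, 2 and 3. With miR-142-5p it was above in 2 of 3 pairs and with miR-183-5p in 1 of 3. By contrast, the libraries numbered 2 were 0.88 lower than the rest, with a pooled SD of 0.131 within numbers, and no library of number 2 overlapped the other 8. In the median member the title number took 86.2% of the sum of squares and the group 3.89%, and over all genes the medians were 69.5% and 7.97%.

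**Figure D2:**
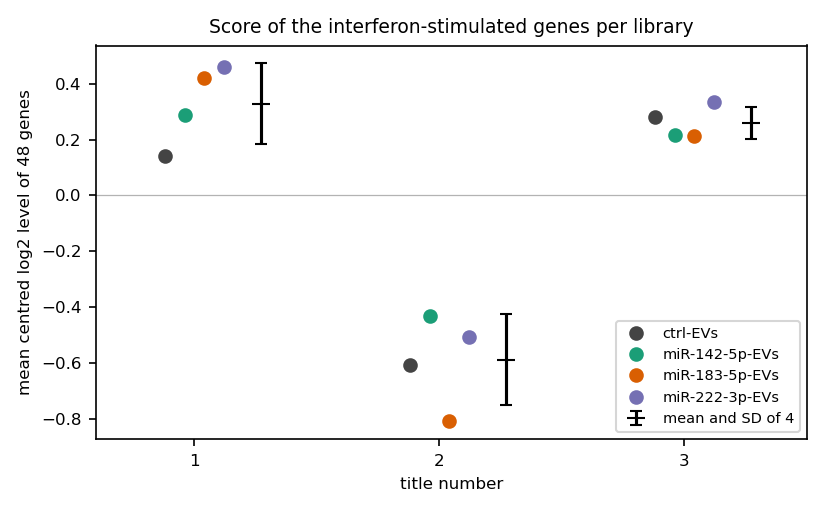
Score of the 48 interferon-stimulated genes (mean centred log2 level, vertical axis) in each library by title number (horizontal axis), with colour for the EV treatment and the mean and SD of the 4 libraries of a number in black. The 4 libraries numbered 2 sit between -0.81 and -0.43, below the rest, which span 0.14 to 0.46.

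The difference between title numbers was then described gene by gene, with the group as a term in the fit. Some difference between the 3 numbers was called in 43 of 48 members (DESeq2 likelihood ratio test, 69.4% of all genes). Against numbers 1 and 3, number 2 was lower in 34 members (32.1% of all genes were called lower) and higher in 6 (32% higher, 64.1% in all), and 8 were not called. Gbp2, counted among the 34, had no library of number 2 at the minimum of 10 counts and passed the filter through the other numbers. Ifi47, also among the 34, had 2 of 4 at that minimum and likewise needed the other numbers to pass. The median log2 difference of the members was -0.86, and that of all genes was 0.01. In 30 of 48 members all 4 libraries of number 2 were below the other 8 (21% of all genes), and in 33 number 2 was the lowest of the 3 in every treatment (25.8%). These counts describe a split that also ran through much of the transcriptome. On the TPM scale all genes together were shifted by -0.22 in number 2, and on CPM (counts scaled to the library total alone) by -0.17. Relative to that shift 37 members were lower on all 3 scales, and only the uncalled Isg20, Mx1, Bst2 and Tap1 changed sign between scales.

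**Figure D3:**
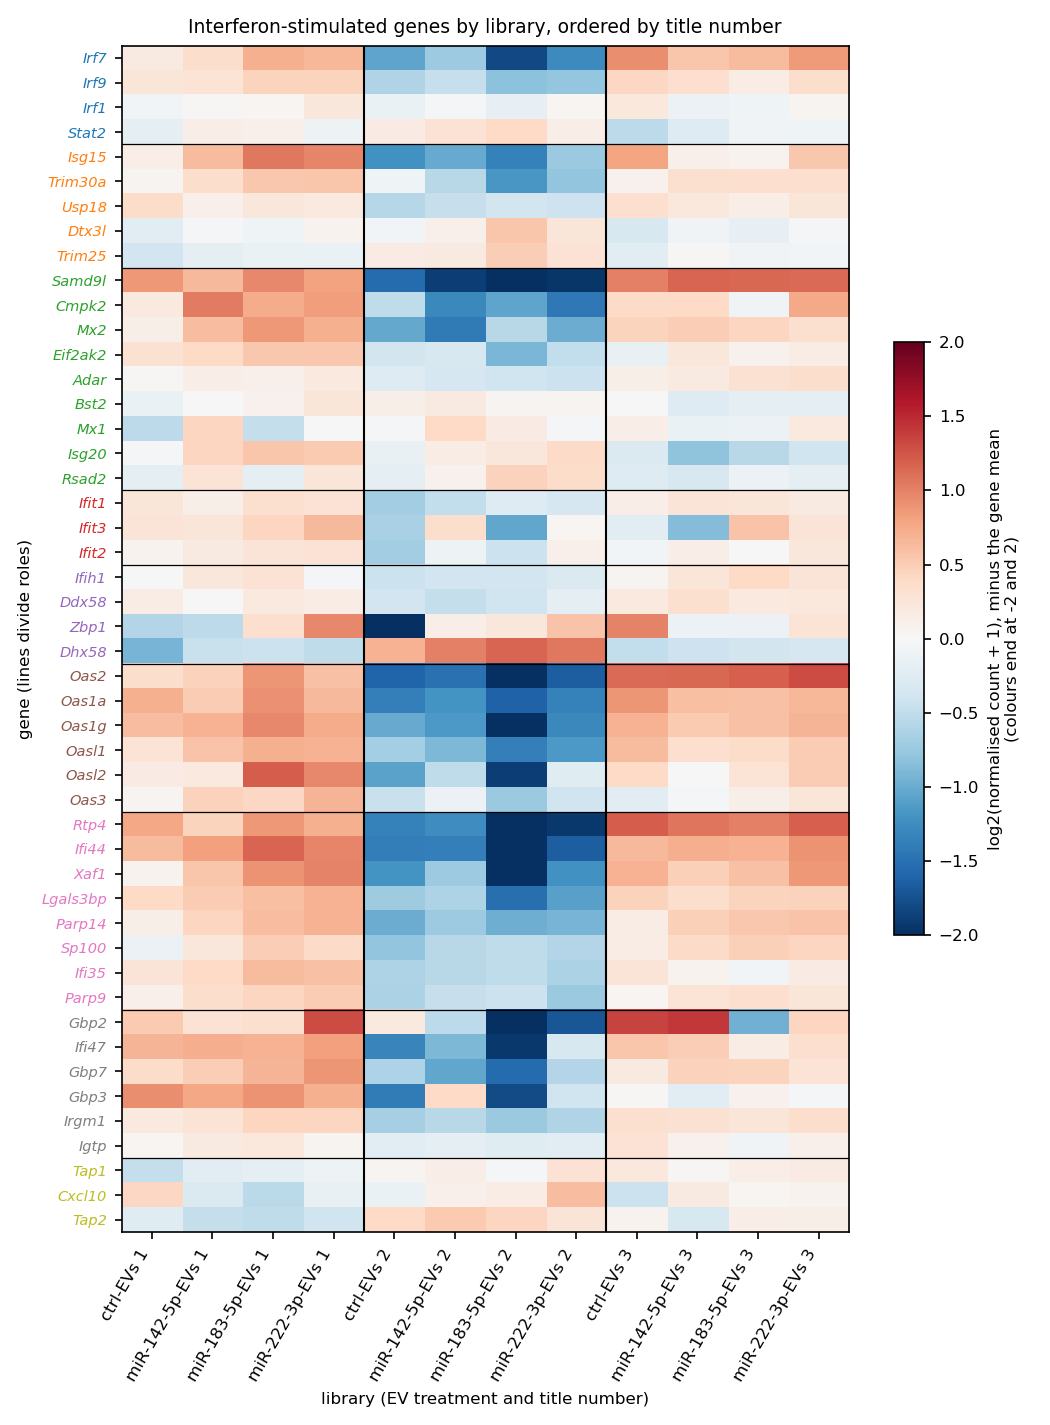
Centred log2(normalised count + 1) of the 48 genes (rows, grouped by role and coloured by it) in the 12 libraries (columns, ordered by title number and then treatment). The middle block of 4 columns, number 2, is on average blue for 37 of the genes and red for 11. For Dhx58, Tap2 and Trim25, all 4 columns of number 2 lie above the other 8.

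Among the transcription factors of the response, Irf7 and Irf9 were lower in number 2, Stat2 was higher, and Irf1 was not called. Irf7 (chromosome 7, 141262706 to 141266481, minus strand) had 683, 767, 988 and 953 normalised counts in the libraries numbered 1, 289, 366, 171 and 250 in those numbered 2, and 1153, 885, 937 and 1090 in those numbered 3, in the order of treatments used above (ctrl-EVs first). The highest value of number 2 was below the lowest of the others, and the log2 difference was -1.80 ± 0.16 (adjusted p = 4.07e-27). Irf9, the DNA-binding subunit of the ISRE complex, went from 1103 ± 78.0 (SD, n = 8) to 554 ± 66.4 (n = 4) and fell by 0.998 ± 0.10 on the log2 scale (adjusted p = 1.56e-23). Stat2, its partner, went the other way, from 741 ± 103 to 953 ± 82.8 (log2 0.37 ± 0.09, adjusted p = 7.92e-05). Irf1, a factor induced mainly by interferon gamma, stood at 1053 ± 95.3 and 976 ± 64.8 (log2 -0.11 ± 0.09, adjusted p = 0.269). Irf7 overlaps Phrf1 on the opposite strand and Irf9 overlaps Rnf31 on the same strand in the annotation.

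All 6 members of the OAS family, enzymes and relatives that respond to double-stranded RNA and make the activator of RNase L, were lower. Oas2 had 1088, 1178, 1571 and 1277 normalised counts in number 1, 280, 301, 170 and 271 in number 2, and 1870, 1881, 1946 and 2110 in number 3, in the same order of treatments. It was 6.19-fold lower in number 2 (log2 -2.63 ± 0.14, adjusted p = 2.17e-79), and number 1 was also below number 3 in all 4 treatments. Oas1a had 1437, 1251, 1658 and 1380 in number 1, 341, 384, 286 and 343 in number 2, and 1624, 1330, 1327 and 1398 in number 3, a 4.21-fold difference (log2 -2.07 ± 0.11). Oas1g was 4.10-fold lower, but 65.5% of the 31-base words of its main transcript occur in transcripts of other genes, mainly Oas1a, so the 2 genes are uncertain as separate measurements. Oasl1, a brake on Irf7 translation, fell by 1.53 ± 0.13 on the log2 scale, Oasl2 fell by 1.38 ± 0.28, and Oas3 fell by 0.63 ± 0.11.

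The nucleic acid sensors split. Ifih1 (MDA5) and Ddx58 (RIG-I), helicases that detect viral RNA in the cytosol, were lower in number 2, by 1.47-fold (log2 -0.55 ± 0.09) and 1.45-fold (log2 -0.54 ± 0.08). Dhx58, the third helicase of that family, was 2.78-fold higher (log2 1.47 ± 0.08, adjusted p = 1.00e-81). Its 4 values in number 2 ran from 2061 to 2839 normalised counts and the 8 others from 666 to 1002. Zbp1 ran from 2.43 to 29.5 normalised counts over all libraries and did not differ detectably at this depth (log2 -0.39 ± 0.52, adjusted p = 0.521).

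Of the 5 genes of the ISG15 system and its related ligases, 3 were lower and 2 higher. Isg15 fell by 1.65 ± 0.20 on the log2 scale, from 286 ± 77.9 to 90.8 ± 17.4 normalised counts (adjusted p = 9.98e-16). Usp18, which also blocks the interferon receptor, fell by 0.68 ± 0.08, and Trim30a fell by 0.95 ± 0.17. Trim25 rose by 0.43 ± 0.07 (adjusted p = 1.03e-09), with 4799 to 6035 counts in number 2 and 3268 to 4349 in the others. Dtx3l rose by 0.33 ± 0.09 (adjusted p = 0.000584), and its groups overlapped, since ctrl-EVs 2 at 1505 was below 3 libraries of the other numbers. Its neighbour and protein partner Parp9, which it overlaps on the opposite strand, fell by 0.85 ± 0.09.

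The IFIT proteins, which recognise the 5′ end of foreign RNA, had 2 lower members of 3. Ifit1 went from 91.7 ± 4.77 to 57.7 ± 7.77 normalised counts (log2 -0.67 ± 0.19, adjusted p = 0.000769), and Ifit2 fell by 0.41 ± 0.12. Ifit3, at 10.4 to 35.7 counts, was not called (log2 -0.46 ± 0.39, adjusted p = 0.297), and 61.8% of its 31-base words also occur in Ifit3b.

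The other antiviral effectors held the largest difference of the list. Samd9l, an inhibitor of translation in infected cells (chromosome 6, 3372257 to 3399572, minus strand), had 930, 798, 993 and 888 normalised counts in number 1, 174, 138, 98.6 and 132 in number 2, and 1031, 1143, 1132 and 1122 in number 3. It was 7.37-fold lower (log2 -2.88 ± 0.13, adjusted p = 5.06e-107). Cmpk2, a mitochondrial nucleotide kinase, fell by 1.61 ± 0.22. Mx2, a dynamin-like GTPase, went from 165 ± 26.6 to 58.5 ± 14.7 and fell by 1.502 ± 0.19 on the log2 scale. Its main transcript is annotated as a polymorphic pseudogene. Eif2ak2 (PKR) and Adar, which respectively stop translation on and edit double-stranded RNA, fell by 0.77 ± 0.11 and 0.53 ± 0.07. Rsad2 alone rose, by 0.28 ± 0.12 (adjusted p = 0.0315), and 8 of the 17 other settings that were run, edgeR among them, did not call it. Mx1 (112 ± 25.2 and 125 ± 18.7), Bst2 (1431 ± 168 and 1581 ± 58.6) and Isg20, an RNA exonuclease (258 ± 92.5 and 287 ± 42.8), were not called, at adjusted p = 0.425, 0.124 and 0.178.

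The GTPases of the IRG and GBP families attack the vacuoles of intracellular pathogens and respond mainly to interferon gamma. The 5 of 6 that reached the minimum of 10 counts in any library of number 2 were lower. Ifi47 reached it in only 2 of the 4 libraries of number 2, too few for the filter without the other numbers. Its call is therefore no support. Irgm1, a regulator of the others, went from 795 ± 46.0 to 408 ± 22.7 normalised counts (log2 -0.96 ± 0.09, adjusted p = 1.85e-26). Gbp7 fell by 1.40 ± 0.18, Ifi47 fell by 1.67 ± 0.31, Gbp3 fell by 1.17 ± 0.35, and Igtp fell by 0.34 ± 0.11. Gbp2 passed the filter only through numbers 1 and 3, so its call is no support either. It was near the limit of detection, at 0 to 6.14 normalised counts in number 2 and 2.20 to 15.5 in the others, and without miR-222-3p-EVs 2 it was no longer called (adjusted p = 0.0905).

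All 8 members grouped as PARPs and others were lower. Rtp4, a chaperone of receptor transport, had 565, 453, 602 and 542 normalised counts in number 1, 129, 139, 48.4 and 86.2 in number 2, and 771, 695, 666 and 759 in number 3, a 6.38-fold difference (log2 -2.67 ± 0.18). Ifi44 was 5.44-fold lower (log2 -2.44 ± 0.13), and Xaf1, a promoter of cell death, was 3.76-fold lower (log2 -1.91 ± 0.20). Lgals3bp went from 2992 ± 237 to 1108 ± 292 and Parp14 from 1448 ± 203 to 562 ± 49.7. Sp100, Ifi35 and Parp9 fell by 0.92 ± 0.08, 0.88 ± 0.11 and 0.85 ± 0.09 on the log2 scale.

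The peptide transporters and Cxcl10 were the only role without a lower member. Tap2, a subunit of the pump that carries peptides into the endoplasmic reticulum, rose by 0.60 ± 0.10 (adjusted p = 5.14e-09), with 1298 to 1553 normalised counts in number 2 and 763 to 1188 in the others. Tap1, the other subunit, was at 703 ± 111 and 781 ± 76.8 (log2 0.16 ± 0.09, adjusted p = 0.115), and Cxcl10 at 91.7 ± 20.7 and 111 ± 25.4 (log2 0.26 ± 0.22, adjusted p = 0.286).

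**Figure D4:**
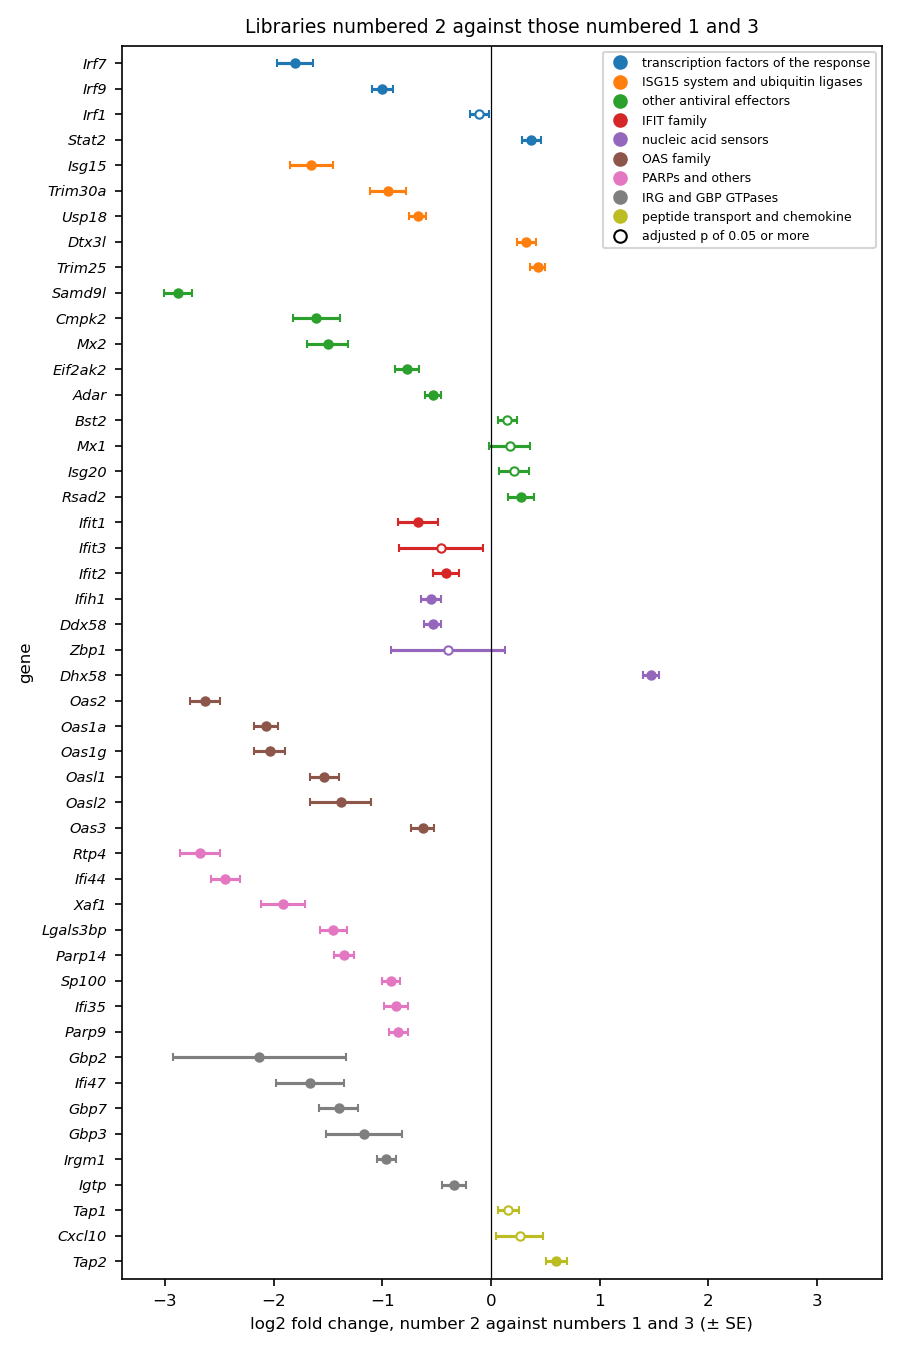
Log2 fold change of each of the 48 genes (vertical axis, by role) in the libraries numbered 2 against those numbered 1 and 3 (horizontal axis, ± SE), with filled points for an adjusted p under 0.05. The OAS family, the PARPs and others and the IRG and GBP GTPases lie wholly to the left of 0, and Dhx58 at 1.47 lies farthest to the right.

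The counts above sum all transcripts of a gene, and the libraries numbered 2 held a larger share of retained-intron transcripts, so the coding transcripts were looked at alone. In 42 of 48 members the most abundant transcript was protein-coding. Coding TPM was lower in all 4 libraries of number 2 than in the 8 others in 30 of 47 members with a coding transcript (37.6% of all genes), and higher in 1, Dhx58 (8.83%). Its coding transcript Dhx58-201 averaged 25.1, 47.9 and 23.5 TPM in numbers 1, 2 and 3, while its other transcripts went from 21.3 and 31.7 to 72.3 TPM. For the other members called higher the picture was mixed. Stat2 had 11.8, 11.1 and 12.2 TPM of coding transcript and 9.48, 11.3 and 7.38 TPM of other transcripts, and Rsad2 had 13.4, 11.2 and 11.8 TPM of coding transcript. Relative to the shift of all genes on the TPM scale, the coding log2 differences were 0.11 for Stat2 and 0.05 for Rsad2, against 0.32 for Dtx3l, 0.41 for Trim25, 0.44 for Tap2 and 1.19 for Dhx58. The coding transcripts of Tap2 were at 7.13, 10.2 and 10.3 TPM in numbers 1, 2 and 3. Number 2 was thus not above number 3 in TPM that was not adjusted for the shift of all genes. Its most abundant transcript, Tap2-202, is annotated as a retained intron and took 55.6% of its TPM. Ddx58 went the other way, with 35.9, 15.4 and 40.5 TPM of coding transcript and 17.3, 18.2 and 20.2 TPM of other transcripts. The Salmon split between transcripts of 1 gene is an estimate.

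**Figure D5:**
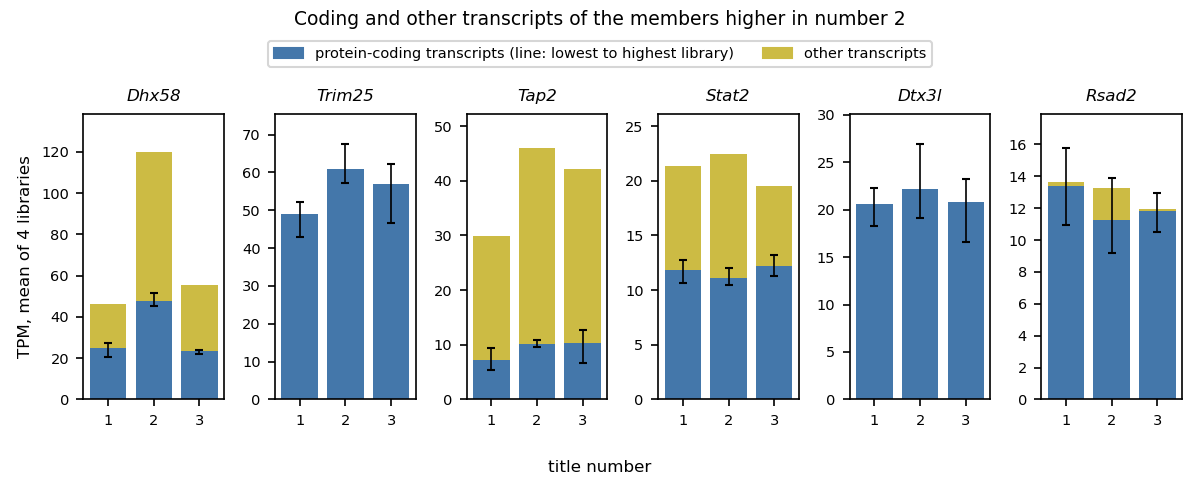
Mean TPM (vertical axis) of protein-coding transcripts (blue, with a line from the lowest to the highest of 4 libraries) and of other transcripts (yellow) by title number (horizontal axis) for the 6 members called higher in number 2, each panel with its own scale. The coding part of Dhx58 is 47.9 TPM in number 2 and at most 25.1 TPM on average in the others, while the coding parts of Stat2 and Rsad2 are not higher in number 2.

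Numbers 1 and 3 differed less. There 4 members were higher in number 1 (12.9% of all genes) and 3 lower (10.5%, and 23.4% in all). Isg20 was higher by 0.87 ± 0.16 (adjusted p = 1.70e-06), with 250 to 377 normalised counts in number 1 and 146 to 210 in number 3. Eif2ak2, Oas3 and Ifi35 were higher by 0.37, 0.37 and 0.36, and they lost the call in 4, 3 and 6 of 12 fits that left out 1 library. These were fits without ctrl-EVs 3, miR-183-5p-EVs 1, miR-222-3p-EVs 1 or miR-222-3p-EVs 3 for Eif2ak2, without miR-142-5p-EVs 3, miR-183-5p-EVs 1 or miR-222-3p-EVs 1 for Oas3, and without number 1 or number 3 of any miR-EV group for Ifi35. Oas2, Tap2 and Tap1 were lower, by log2 values of -0.61 ± 0.15, -0.41 ± 0.11 and -0.38 ± 0.11. All 4 libraries of number 1 lay above number 3 in 4 members, Eif2ak2, Gbp3, Ifi47 and Isg20 (13.2% of all genes), and below it in 4, Oas2, Rtp4, Samd9l and Tap1 (12%).

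The genes upstream of the members were read from lists of the pathway. Of 6 interferon receptor genes, Ifnar1, a chain of the type I receptor, was higher in number 2 (log2 0.34, adjusted p = 2.21e-05), Il10rb, shared with the lambda interferon receptor, was lower (-1.13), and 4 were not called. Among the kinases of the receptors and the STAT factors, Jak2, Tyk2 and Stat3 were higher (log2 0.34, 0.20 and 0.98), and Jak1 was not called. Of 15 measured sensors and adaptors 9 were lower and 2 higher. Those lower included Tlr7, a receptor for single-stranded RNA, Tmem173 (STING, -1.85), Tlr3 (-1.66), Myd88 (-1.58) and Tlr4 (-1.02), and those higher were Tbk1 (0.33) and Traf3 (0.61). Of 10 measured restraints 5 were lower and 3 higher, among them Socs3 (0.41), while Socs1 was below the filter. Of 100 other measured interferon-stimulated genes 54 were lower and 15 higher, with a median of -0.41. Of 18 measured targets of NF-kB, the factor of a different inflammatory pathway, 12 were lower and 4 higher, with a median of -0.60, and of 10 measured macrophage markers 5 were lower and 2 higher. Of 6 measured endothelial markers 3 were lower and 1 higher, and of 3 other IRF factors 1 was lower and 1 higher. These counts stand beside 32.1% of all genes called lower and 32% called higher (64.1% in all), and nothing particular to the lists is read from them. In the treatment comparisons without the block none of these lists held a call, and with it 1 of the 100 other interferon-stimulated genes was called, as lower, over all miR-EVs.

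Promoters were read for the 38 members with a window in the RefSeq table (GRCm38.p6, 250 bases before to 50 after the annotated start; the 10 others were not analysed here). An ISRE core, searched as GAAANNGAAA on both strands, occurred in 19 of 38 members (50%) and in 3.99% of 27025 genes with a window. A GAS core, searched as TTCNNNGAA, occurred in 10 of 38 (26.3%) and in 9.55% of all. The ISRE core was in 14 of 28 members lower in number 2, in 2 of 4 higher and in 3 of 6 not called, which is 50% of each. The GAS core was in 7 of 28 lower, 0 of 4 higher and 3 of 6 not called. The 28 include Gbp2, which held an ISRE core, and Ifi47, which held neither core. Both needed the other numbers to pass the count filter, so their class is uncertain. The sites of 3 lower members, an uncalled one and both higher ones are shown as examples of matches to the core in each class. The higher ones, Rsad2 and Stat2, are weak examples, since the TPM of their coding transcripts was not higher in number 2. Relative to the shift of all genes, the coding log2 differences were 0.05 and 0.11. Rsad2 was also not called in 8 of 17 other settings. Each site is written in the direction of its gene, with the core in capitals.
Oas1a (chr5:120907526-120907555, minus strand): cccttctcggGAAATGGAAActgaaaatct
Isg15 (chr4:156200871-156200900, minus strand): gtaggaaaagGAAACCGAAAcagaaaatag
Irgm1 (chr11:48871425-48871454, minus strand): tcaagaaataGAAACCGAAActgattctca
Bst2 (chr8:71537577-71537606, minus strand): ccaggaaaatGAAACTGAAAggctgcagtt
Rsad2 (chr12:26456553-26456582, minus strand): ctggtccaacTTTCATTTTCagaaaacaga
Stat2 (chr10:128270266-128270295, plus strand): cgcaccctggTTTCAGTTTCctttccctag
The core of Oas1a, whose gene was 4.21-fold lower, began 20 bases before the start, and that of Stat2, which was higher, lay farther upstream. The Oas1a site is shared letter for letter by Oas1g. A match of these letters is not a measured binding site.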

How the data were processed

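RNA was extracted with a miRNeasy kit and the authors made stranded libraries from polyadenylated RNA. The authors assigned the reads to Ensembl transcripts with Salmon, to cDNA and noncoding RNA. The submitters' processing notes name the human build GRCh38, but the deposited transcript identifiers are those of mouse, and 116622 of 118783 (98.2%) matched the GENCODE vM21 annotation (GRCm38), which gave gene names and positions. The deposited tables hold estimated counts, TPM and effective length per transcript. A read shared by similar transcripts is split by Salmon, so near-identical genes are uncertain: 9 of 48 members shared over 10% of the 31-base words of their main transcript with another gene.

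Estimated counts were summed to genes, rounded, and tested with DESeq2 1.42.0 (R 4.3.3) with a length offset as in tximport, as the study's methods describe, for the 13906 genes that reached 10 counts in 3 or more libraries. Wald tests compared treatments over all 12 libraries (group as the only term) and title numbers (group and number as terms). Benjamini-Hochberg adjustment ran over all tested genes, and 0.05 was the threshold. Normalised counts are those of DESeq2 with that offset. Library totals ran from 16294611 to 22974853 counts, so 3 counts, the limit that a count of 0 allows, correspond to 0.131 to 0.184 CPM, and this covers counting error only. TPM was used to compare levels between genes and transcripts, because it is scaled by length.

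Same-numbered libraries of different groups deviated together from their group means (18 pairs, correlations from 0.409 to 0.797), so the number was taken to pair them, and fits with it as a block are given beside the main ones where a call changed. The pairing comes from the titles and this check. The alternatives were edgeR 4.0.16, TMM factors, no length offset, no filter, other pseudocounts and leaving out libraries. Fits without all libraries numbered 2, fits that combine the block with another setting, and a single group of the 9 miR-EV libraries were added after seeing the data. Tests were checked on simulated counts.

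The members and lists were chosen with earlier results of these data known, so no test was made over the list and no p is given for the score. Members called in any comparison, up to 4 per role by size of change, the highest and lowest by TPM in each role, and a set that includes Isg15 and Irf7 were to be given with values; others are named in addition. A result on 1 listed gene is not reported here. Promoter windows and microRNA sequences are from RefSeq tables.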

Additional observations from a re-analysis of the deposited data

Results flagged for a closer look

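Within each set of 4 libraries of 1 title number, and within the 9 miR-EV libraries, the library farthest from the rest was looked for in each member and in the score. In 7 of 196 sets its gap to the nearest library, as a share of the whole range on the log2 scale, was above the limit that chance passes in about 1 of 20 sets, so the number of such sets is no more than chance alone gives. In number 3, miR-142-5p-EVs 3 stood apart in 3 members: Ddx58 (gap 0.858, 2702 normalised counts against 2464 to 2496), Tap2 (gap 0.871, 869 against 1141 to 1188) and Lgals3bp (gap 0.899, 2701 against 2903 to 2926). The ctrl-EV library stood apart below the 3 miR-EV libraries of its number in 3 members: Dhx58 in number 1 (gap 0.838, 666 against 889 to 940), Trim30a in number 3 (gap 0.943, 485 against 570 to 576) and Zbp1 in number 2 (gap 0.838, 2.43 against 15.7 to 21.7). Among the miR-EV libraries, Gbp3 was low in miR-183-5p-EVs 2 (gap 0.519, 9.10 against 25.5 to 63.6).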

How the results depend on the processing

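Without a block, the 0 members called in each treatment comparison stayed 0 under edgeR, TMM factors, no length offset, no filter and when single libraries or all libraries numbered 2 were left out. With the replicate block (the pairing by title number), 1 member was called for miR-183-5p-EVs and 2 for all miR-EVs. Over all miR-EVs the block gave 2 with TMM factors, 2 with no filter, 1 with no length offset, 3 with a single miR-EV group and 2 without replicate 2 of every group. For miR-183-5p-EVs it gave 1 with TMM factors (20 members without an adjusted p), and 0 with no filter, with no length offset (20 without an adjusted p), with edgeR and without replicate 2 of every group. Without replicate 2 of every group it gave 1 for miR-222-3p-EVs. Leaving out 1 library at a time with the block gave 0 to 1 for miR-142-5p-EVs, 0 to 2 for miR-183-5p-EVs, 0 to 1 for miR-222-3p-EVs and 0 to 2 for all miR-EVs. The cause was not tested. Parp14 was called over all miR-EVs under 5 of these settings. With all 12 libraries kept, the block changed no other call in the treatment comparisons. For the title numbers, leaving out 1 library gave 33 to 34 members lower and 5 to 9 higher in number 2, 39 to 44 called for any number, and 1 to 7 higher and 3 to 5 lower in number 1 than in number 3. The other settings left 34 lower and 5 to 7 higher. The score difference of number 2 ran from -0.94 to -0.81 when 1 library was left out, and those of the treatments changed sign. Single genes were followed if called in the main fit or, for the treatments, in a fit other than the leave-out fits. Members called only when libraries were left out were not followed, so the next counts do not include them. No followed single-gene result reversed in direction. Among them, a call was lost in 22 fits of 5 results (Eif2ak2, Oas3, Ifi35, Rsad2 and Gbp2) and gained in 22 fits of 4 (Dhx58, Parp14, and Sp100 in 2 comparisons). Gbp2, Zbp1 and Ifit3 rest on 0 to 35.7 normalised counts per library. Of these only Gbp2 was called in the main comparison of number 2 with the others. Ifi47, also called there, had 8.70 to 28.6 normalised counts in number 2. The part of depth in the results of these genes was not tested.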
